A study of Mus musculus with 32 samples.

Results

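Sex differences in the liver of young adult mice born to obese dams were examined by comparing the 4 male (MM) and the 4 female (MF) liver libraries of the 8-week table, gene by gene, over genes that do not lie on the X or Y chromosome. The table listed 14242 genes, of which 13815 lay off X and Y, and 13769 of these had enough reads to be tested. MM and MF were offspring of dams given a Western-style diet from 4 weeks before mating until the end of lactation, and the control males (CM) and control females (CF) came from dams given chow. All offspring received chow for 5 weeks after weaning and were killed at 8 weeks of age, fed ad libitum. The mice of both ages were littermate controls from a colony with a floxed Reg3g allele, and were Reg3g-fl/+ or Reg3g-fl/fl by the paper. The labels give neither the genotype of a mouse nor whether it carries a Cre transgene. The litter of each mouse is not given, so mice of a group may share a dam, and p-values measure only the spread between these mice.

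The liver is among the organs with the largest differences in gene expression between the sexes in rodents. Most of these differences appear at puberty, when growth hormone is released in pulses in males and more evenly in females. Growth hormone acts on hepatocytes through the kinase JAK2 and the transcription factor STAT5b, and sets the levels of cytochrome P450s, sulfotransferases and urinary pheromone carriers. Estrogen and androgen receptors contribute in addition.

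The MM libraries held between 26726861 and 40062768 counted reads and the MF libraries between 25689193 and 42574926. Y-linked genes and Xist matched the labelled sex in all 8 libraries, with Xist at 0 to 0.325 CPM (reads of the gene scaled to library size) in MM and 486 to 903 CPM in MF. Alb, the hepatocyte product albumin, stood at 62375 to 83242 CPM in MM and at 80096 to 99869 CPM in MF. Several libraries stood apart from their group. MM 2 had the lowest median rank correlation with its group, at 0.967, and its deviations fell with gene length, with a rank correlation over genes of -0.59. It also had the lowest share of mitochondrial reads, 1.69% against 3.59 to 5.23% in the other MM libraries. MF 1 had the lowest median rank correlation among MF libraries, at 0.978, and its deviations also fell with gene length, at -0.37. Deviations rose most with gene length in MM 4 among MM libraries, at 0.44, and in MF 3 among MF libraries, at 0.39. MM 1 had the lowest levels of major urinary protein genes among MM libraries. Counts that change by more than 1.5 times without MM 1, MM 2 or MF 1 are given with and without them.

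A total of 891 genes off X and Y differed between MM and MF at FDR < 0.05 by the quasi-likelihood test of edgeR, which is 6.47% of those tested. Of these, 413 were higher in MM (3% of genes tested) and 478 were higher in MF (3.47% of genes tested). The difference was at least 2-fold for 433 of the called genes, at least 4-fold for 165 and at least 16-fold for 67. Among the 67, 27 were higher in MM and 40 in MF. The median log2 fold change was 0.93 for genes higher in MM and -1.02 for genes higher in MF, against 0.01 over all genes tested. In 789 of the called genes the 4 MM and the 4 MF libraries did not overlap, whereas 12% of all genes tested had no overlap. The number of calls depended on the libraries in the fit. It was 497 when only the 8 MM and MF libraries were fitted, 1392 without MF 1, 564 without MF 4, and 1363 with DESeq2. Without MM 2 it was 681, and without MM 1 it was 1008.

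**Figure D1:**
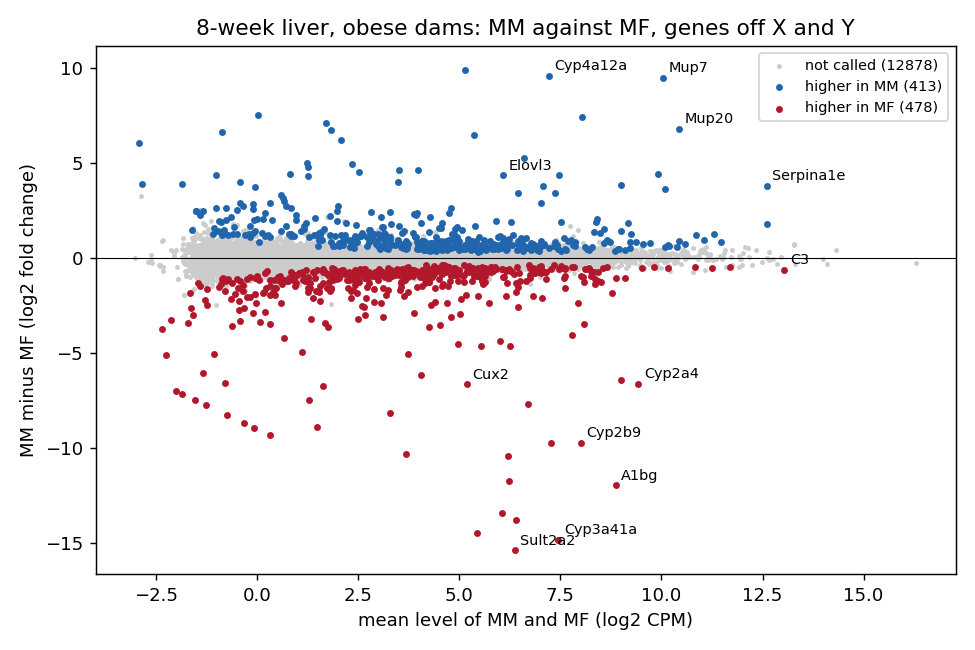
Each point is a gene off X and Y at 8 weeks; the x axis is the mean level of MM and MF in log2 CPM and the y axis is the log2 fold change, MM minus MF. The 413 genes higher in MM are blue and the 478 higher in MF are red, and the changes extend further below 0 than above it.

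The genes with the largest differences towards males encoded a P450 pair and the major urinary proteins, which are small lipocalins that carry pheromones and are secreted by the liver into urine. Cyp4a12a, a fatty acid hydroxylase, was at 257, 293, 301 and 336 CPM in MM and at 0.0702, 0.433, 0.93 and 0.0622 CPM in MF. The male libraries lay close together, the female ones spread around values near 0, and the log2 fold change was 9.59 (SE 0.51, FDR 1.15e-09), or 10.74 without MF 3, the highest female library. Its neighbour Cyp4a12b, a near copy, was 9.91 higher on the log2 scale (SE 0.45), or 11.55 without MF 3. Mup7 was at 220, 2319, 2208 and 3648 CPM in MM and at 0.866, 3.71, 5.6 and 1.37 CPM in MF. MM 1 was thus 10 times or more below the other MM libraries, yet above every MF library, and the log2 fold change was 9.50 (SE 1.00). Mup20, which encodes the pheromone darcin, was at 1292, 5447, 2058 and 2175 CPM in MM against 16.8 to 27 CPM in MF, a log2 fold change of 6.81 (SE 0.45), or 6.22 without MM 2.

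Of 27 major urinary protein genes and pseudogenes tested, 13 were higher in MM and 2 were higher in MF, where 3% and 3.47% of all genes tested were called in these directions. Their median log2 fold change was 1.65. The 2 higher in MF were the pseudogenes Mup-ps16 and Mup-ps10. Summed over the 27, the level was 8176 CPM in MM 1, 25492 in MM 2, 15066 in MM 3 and 17425 in MM 4, and between 2177 and 4236 CPM in MF. The groups did not overlap, and MM 1 lay nearest to the females. These genes are close copies, and because the authors left out reads that mapped to several places, levels of single members are uncertain.

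Other genes with large differences towards males had varied roles. Tff3, a mucosal trefoil peptide, was at 3.08 to 15.6 CPM in MM, highest in MM 1, and at 0.0311 to 0.0936 CPM in MF. Sdr16c5, a retinol dehydrogenase, was at 0.0246, 2.68, 0.762 and 0.918 CPM in MM and had only 1 read in all MF libraries together. Its pooled ratio of 134 carried a 95% counting interval of 24.1 to 5294, and MM 1 lay just above the highest MF library, MF 1 at 0.0234 CPM. Its fitted log2 fold change of 6.62 was 5.66 without MM 2 and 8.06 without MF 1, and that of Tff3 was 6.74, or 5.95 without MM 1. Nat8f5, an N-acetyltransferase family member, had a log2 fold change of 6.19, or 6.81 without MF 1. Among abundant transcripts, Serpina1e, which encodes a secreted protease inhibitor of the alpha-1-antitrypsin family, was at 11088, 13378, 8717 and 13353 CPM in MM and at 127, 895, 1829 and 474 CPM in MF. It was 14-fold higher in MM (log2 fold change 3.81, SE 0.64), and its log2 fold change was 4.55 without MF 3. Mup3 was 3.47-fold higher, Scp2, a peroxisomal sterol carrier, was 2.43-fold higher, and Car3, a carbonic anhydrase, was 1.94-fold higher. Elovl3, a fatty acid elongase, was at 64, 190, 93.1 and 174 CPM in MM and at 2.81 to 10.2 CPM in MF.

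The largest differences towards females were in sulfotransferases and P450s that were almost unread in males. Sult2a2, which sulfates bile acids and steroids, had no read in any MM library and was at 231, 145, 57.7 and 233 CPM in MF, at least 6907-fold higher. Sult3a1 likewise had no read in MM and was at 41.8, 106, 72.7 and 129 CPM in MF, at least 3447-fold higher. These bounds rest on a floor of 3 reads over the 4 MM libraries. Cyp3a41a had 1 read in all MM libraries together and was at 251, 371, 236 and 546 CPM in MF. Its ratio of 42067 carried a counting interval of 7550 to 1661556. Cyp2b13, also with 1 read in MM, was at 194, 142, 171 and 174 CPM in MF, and its 4 female libraries lay close together. The close copies in these families again make single members uncertain.

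A1bg, which encodes a plasma glycoprotein of the immunoglobulin superfamily, was at 0.122 to 0.345 CPM in MM and at 1004, 1004, 318 and 1404 CPM in MF. The log2 fold change was -11.98 (SE 0.64), and MF 3 was the lowest female library. MF 3 was also the lowest female library for Sult2a1, at 20.6 CPM against 136 to 204 CPM in the other 3, and for Cyp3a16, at 20.5 CPM against 121 to 283 CPM. Cyp2b9 was at 1.48, 0.244, 0.427 and 0 CPM in MM and at 404 to 567 CPM in MF. Cyp2a4, a steroid hydroxylase, was at 49.1 CPM in MM 1 and at 0.954 to 2.5 CPM in the other MM libraries, against 902 to 1781 CPM in MF. Its log2 fold change of -6.62 became -9.44 without MM 1. Without MM 1 the log2 fold change also went from -9.74 to -11.09 for Cyp2b9 and from -10.43 to -11.50 for Cyp3a16.

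Promoters of the genes with the largest differences are shown where they hold the letters TTCNNNGAA, the palindrome that STAT5 proteins are known to recognise. Of the 24 genes ranked by size of difference, 13 had an entry among the RefSeq promoters of build GRCm38.p6, and 2 of those held the letters. Each is printed 5′ to 3′ on its own strand, from 250 bases before the start site to 50 bases after it, with the match in capitals.
Sult3a1, chr10:33857472-33857771, plus strand: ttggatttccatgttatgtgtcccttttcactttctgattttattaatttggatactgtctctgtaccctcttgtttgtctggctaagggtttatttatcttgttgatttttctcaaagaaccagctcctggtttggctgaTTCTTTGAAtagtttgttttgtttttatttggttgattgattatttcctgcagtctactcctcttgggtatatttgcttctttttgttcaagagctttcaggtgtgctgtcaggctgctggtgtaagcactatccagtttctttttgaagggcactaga
A1bg, chr15:60921221-60921520, minus strand: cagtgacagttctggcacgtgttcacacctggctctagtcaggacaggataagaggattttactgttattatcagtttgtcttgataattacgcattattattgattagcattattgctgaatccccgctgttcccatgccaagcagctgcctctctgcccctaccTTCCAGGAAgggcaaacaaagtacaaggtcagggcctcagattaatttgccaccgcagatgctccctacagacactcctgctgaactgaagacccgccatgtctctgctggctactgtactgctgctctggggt
The match lay 109 to 101 bases before the start site in Sult3a1 and 84 to 76 bases before it in A1bg. The A1bg gene as counted here spans chr15:60896859-60923012, so its printed promoter lies within the gene and belongs to another start site. Over all tested genes with an entry, 720 of 10244 promoters (7.03%) held the letters, against 27 of 313 (8.63%) for genes higher in MM and 24 of 348 (6.9%) for genes higher in MF. Among genes called with at least 4-fold difference, the letters were in 2 of 42 promoters (4.76%) of genes higher in MM and 5 of 60 (8.33%) of genes higher in MF, and no difference between these shares was tested. The palindrome reads the same on both strands, and a match is a description of letters and not a site.

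**Figure D2:**
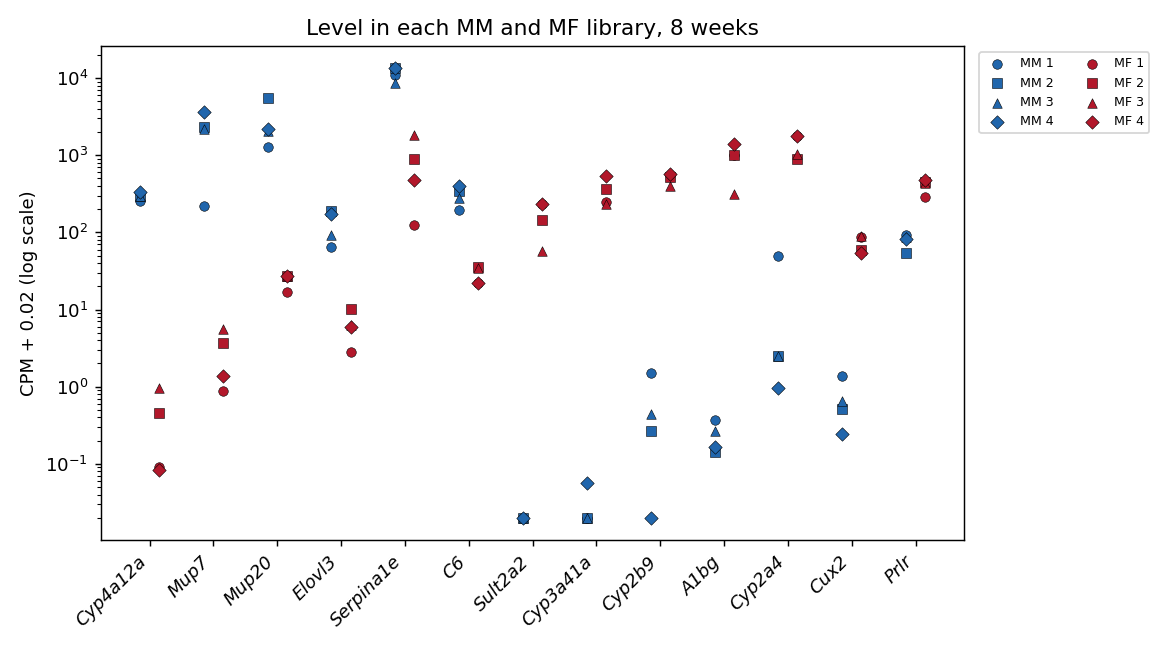
Levels of 13 genes in each MM (blue) and MF (red) library, as CPM plus 0.02 on a log axis, with 1 symbol shape for each library number. The 2 sexes are separate for every gene shown, MM 1 is the lowest male library for Mup7 and the highest for Cyp2a4, and MF 3 is the lowest female library for A1bg.

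Among the regulators linked to growth hormone and to liver sex bias, 3 were higher in MM and 4 were higher in MF of 26 tested, and the median log2 fold change over the 26 was -0.10. That is 26.9% called, against 6.47% of all genes. Members were picked for links to liver sex bias, and this choice by itself favours a higher share. Cux2, a homeobox repressor known for female-biased expression in liver, was at 1.35, 0.488, 0.64 and 0.22 CPM in MM and at 87.6, 59.8, 89.3 and 54 CPM in MF, a log2 fold change of -6.66 (SE 0.45, FDR 2.68e-08), or -7.32 without MM 1. Prlr, the prolactin receptor, was at 53.5 to 92.1 CPM in MM and at 288 to 483 CPM in MF. Trim24, a transcriptional cofactor, was 5.22-fold higher in MF, and Tox, a high mobility group factor, was 3.27-fold higher. Onecut1, a hepatocyte homeobox factor, was 3.56-fold higher in MM, ranging from 11.5 to 56.5 CPM there, with MM 2 below the highest MF library. Foxa1 and Foxa3, the pioneer factors, had log2 fold changes of 0.72 and 0.80, and both lost the call in several fits that left out a library, as did Onecut1.

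The core of the growth hormone pathway did not pass the test, which does not show that its levels were equal. Ghr, the growth hormone receptor, had a mean of 472 ± 57.1 CPM in MM and of 480 ± 64.2 CPM in MF (SD, n = 4), with a log2 difference of -0.02 (SE 0.12). Jak2 had a log2 difference of -0.07 and Stat5b of -0.34 (SE 0.14, FDR 0.167). The log2 difference was -0.47 for Stat5a (FDR 0.104) and -1.05 for Socs2 (FDR 0.179). Igf1, a hormone made under growth hormone control, was at 447 to 489 CPM in MM and at 490 to 813 CPM in MF (FDR 0.0865). For Stat5a, Stat5b, Socs2 and Igf1 every MM library lay below every MF library, where 12% of all genes tested had no overlap. For Ghr and Jak2 the groups overlapped. Bcl6, a repressor known as male-biased in liver, was at 15.6, 6.87, 12.9 and 18.6 CPM in MM and at 6.88, 15.2, 6.73 and 10.5 CPM in MF, so the groups overlapped (FDR 0.601).

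Of 15 steroid and xenobiotic receptor genes, 1 was higher in MM and 3 were higher in MF (26.7% called, against 6.47% of all genes). Esr1, the estrogen receptor alpha, was at 29.8, 11.6, 18.6 and 22.5 CPM in MM and at 43.7, 29.5, 54.7 and 69 CPM in MF. The highest male library just exceeded the lowest female one, and the log2 fold change was -1.25 (SE 0.28, FDR 0.00957). Nr1i3, the constitutive androstane receptor, was 1.9-fold higher in MF, with MM 1 the lowest library at 127 CPM. Ahr, the dioxin receptor, had a log2 fold change of -0.94 and was not called without MF 2. Pparg was the only one higher in MM, with a log2 fold change of 0.51 (FDR 0.0499), and it lost the call under both other scalings.

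Enzymes of detoxification were called in both directions. The shares called over all genes tested, 3% higher in MM and 3.47% higher in MF, are the background for this and the following lists. Among 61 tested genes of P450 families 1 to 4, 9 were higher in MM and 19 were higher in MF (45.9% called, against 6.47% of all genes). All 12 called sulfotransferases of 14 tested were higher in MF. Of these, 5 had no read and 2 had 1 read in all MM libraries together. Such genes passed the read filter without the MM libraries, so they could be called only as higher in MF. The median over the 14 was -4.46 on the log2 scale as fitted, and -3.12 with those 7 taken at their bound or ratio. Of 17 glucuronosyltransferases, 5 were higher in MM, among them Ugt2b38 at 15.5 to 33.1 CPM against 0.678 to 2.2 CPM in MF, and 3 were higher in MF, among them Ugt1a5 with a log2 fold change of -2.01. Of 21 glutathione S-transferases, 6 were higher in MM and Gstt3 was higher in MF. Gstp1 was at 2038, 2889, 1413 and 1716 CPM in MM and at 271, 112, 128 and 129 CPM in MF, where MF 1 was the highest. Of 22 flavin monooxygenases and aldehyde dehydrogenases, 6 were higher in MF and Aldh7a1 was higher in MM. Of 28 hepatocyte transporters, 3 were higher in MM and 9 in MF. The largest was Slc22a26, an organic anion transporter family member, at 0.325 to 2.07 CPM in MM against 157 to 248 CPM in MF, a log2 fold change of -7.69, or -8.51 without MM 1.

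Steroid hormone enzymes were called in both directions, with 8 of 23 higher in MM and 3 higher in MF. Srd5a1, which makes dihydrotestosterone, was at 79.7 to 99.5 CPM in MM and at 36.8 to 46.4 CPM in MF. Hsd3b2 was 1.83-fold higher in MM. Cyp17a1, which catalyses steps towards androgens, was at 7.8, 5.16, 5.3 and 5.21 CPM in MM and at 194, 112, 47.1 and 140 CPM in MF, a log2 fold change of -4.39 (SE 0.37). In bile acid synthesis, 4 of 16 genes were higher in MM and 2 in MF. Cyp7b1, of the alternative pathway, was at 79.7, 312, 189 and 337 CPM in MM and at 18.3 to 41.1 CPM in MF. Cyp8b1, which makes cholic acid, was 2.49-fold higher in MM, whereas Akr1d1 and Cyp39a1 were higher in MF by 0.93 and 0.90 on the log2 scale. Cyp7a1, the rate-limiting enzyme of the classical pathway, was at 100 to 269 CPM in MM and at 107 to 423 CPM in MF (FDR 0.578).

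Over 23 cholesterol synthesis genes the median log2 difference was -0.35, with 21 below 0 and 2 above it. Only Hmgcs1 and Idi1 were called, both higher in MF. That is 8.7% of the list, where 3.47% of all genes were called higher in MF and 6.47% in either direction. The list had 5 calls without MM 1 and 6 without MF 1, and Idi1 lost its call without MM 2, MF 2, MF 3 or MF 4. Hmgcs1 was at 315 to 425 CPM in MM and at 578 to 820 CPM in MF. In the control contrast, 16 of the 23 were called, all higher in CF, where 6.17% of all genes tested were called higher in CF. Lipid droplet genes were called more often towards males, with 5 of 18 higher in MM and 1 higher in MF, although 3 calls in all were left without MM 2. Of 4 adipocyte markers tested, Lpl, a lipoprotein lipase, was called higher in MM (log2 fold change 0.84, SE 0.19), at 33.6 to 63.1 CPM there and at 19.8 to 29.8 CPM in MF, and it was not called with the 8 compared libraries only. The summed adipocyte markers were at 74.6, 76.2, 59.3 and 46.9 CPM in MM and at 40.5, 40.1, 47.9 and 30.1 CPM in MF, where only MM 4 lay within the female range. The part of adipocyte RNA in the lipid droplet result was not tested. Fitm1, which promotes lipid droplet formation, was at 19, 39.5, 18.3 and 27.5 CPM in MM and at 5.26 to 10.3 CPM in MF. Cidec, which enlarges lipid droplets, had a log2 fold change of 1.54 (SE 0.38), with MM 3 below the highest MF library. Pnpla3 was higher in MF by 2.6 on the log2 scale, but its groups overlapped, with MF 2 at 1.62 CPM, and the call was lost with the 8 compared libraries only. Of 29 genes of fatty acid and triglyceride synthesis, 2 were higher in MM and 1 in MF, shares near the background. In fatty acid uptake and oxidation, 2 of 40 were higher in MM and 6 in MF. Acot3, a peroxisomal thioesterase, was at 3.08 to 9.38 CPM in MM and at 142 to 152 CPM in MF. Cd36, a fatty acid transporter, was at 19.5 to 32 CPM in MM and at 57.7 to 86.3 CPM in MF, a log2 fold change of -1.40 (SE 0.21).

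In the complement list, 8 of 26 genes were higher in MM and only C3 was higher in MF. C6 was at 197, 347, 277 and 398 CPM in MM and at 22.1 to 35.4 CPM in MF, and C9 was 2.87-fold higher in MM. C8a, C8b, C4a and C2 were also higher in MM. C3, the central component, was at 5711 to 8269 CPM in MM and at 9471 to 10829 CPM in MF, and its call was lost with the 8 compared libraries only, as was that of Itih4. Acute phase and coagulation genes were called only towards females, 5 of 27, with Orm2, Orm3, Lcn2, Itih4 and Crp. Interferon response and innate sensing genes were called only towards females, 6 of 45, and their median log2 fold change was -0.32. Gbp3, a guanylate binding protein, was 2.85-fold higher in MF. In the list of cytokines and chemokines, which also holds enzymes of prostaglandin and leukotriene metabolism, 1 of 29 was higher in MM and 6 in MF. Among the 6 were Il1rn and Il15, an interleukin antagonist and an interleukin, and Hpgd and Ptgds, which act on prostaglandins, and 3 calls were left without MM 2. Ptgds lost its call without MM 2, MM 3, MM 4 or MF 2, and Il15 without MM 4 or MF 2. In the cell adhesion, glycosaminoglycan and Wnt list, 1 of 35 was higher in MM and 4 in MF, with St3gal6, a sialyltransferase, at -2.11 on the log2 scale, and 2 calls were left without MM 2. Of 17 clock genes, Bhlhe41 was called (5.88%, against 6.47% over all genes), and not without MM 3. Of 26 genes of the reactive oxygen and NRF2 list, Nox4 and Gsr were higher in MM, and Nqo1, Mt1 and Mt2 were higher in MF, with overlapping groups for Mt1 and Mt2. Nox4 was not called with the 8 compared libraries only. The list had 8 calls without MF 1. Without MM 1 the log2 fold change of Mt1 went from -2.56 to -3.28, and that of Mt2 from -3.12 to -3.73.

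Markers of other liver cells were checked beside these lists. None of the 14 macrophage, 11 B cell, 13 T and NK cell, 14 endothelial, 8 cholangiocyte or 5 red cell precursor markers tested was called. The summed macrophage markers ranged from 364 to 579 CPM in MM and from 438 to 873 CPM in MF, and the ranges overlapped. All 14 had a log2 difference below 0, with a median of -0.44, and 1 was called without MF 1. The T and NK cell markers had a median of -0.35, with 10 of 13 below 0, and 1 was called without MM 1 or without MF 1. These medians stand beside -0.32 for the interferon list and -0.37 for the cytokine list. The summed stellate cell and fibroblast markers were 463 to 550 CPM in MM and 623 to 739 CPM in MF, without overlap, and Lrat and Dcn were called of 15. All 15 had a log2 difference below 0, with a median of -0.44. The count of calls was 1 without MM 2 and 4 without MF 1, and Dcn lost its call under 7 alternatives. The part of these cells in the immune and adhesion results was not tested. Of the 14 endothelial markers, 12 had a log2 difference below 0 and 2 above it, with a median of -0.20. Of the neutrophil and exocrine pancreas markers only 3 of 11 and 2 of 13 had enough reads to be tested. The 2 exocrine markers summed to 16 to 27.3 CPM in MM and to 9.3 to 13.8 CPM in MF, without overlap, and neither was called. In whole liver, fewer cells of a type and less RNA per cell cannot be told apart.

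**Figure D3:**
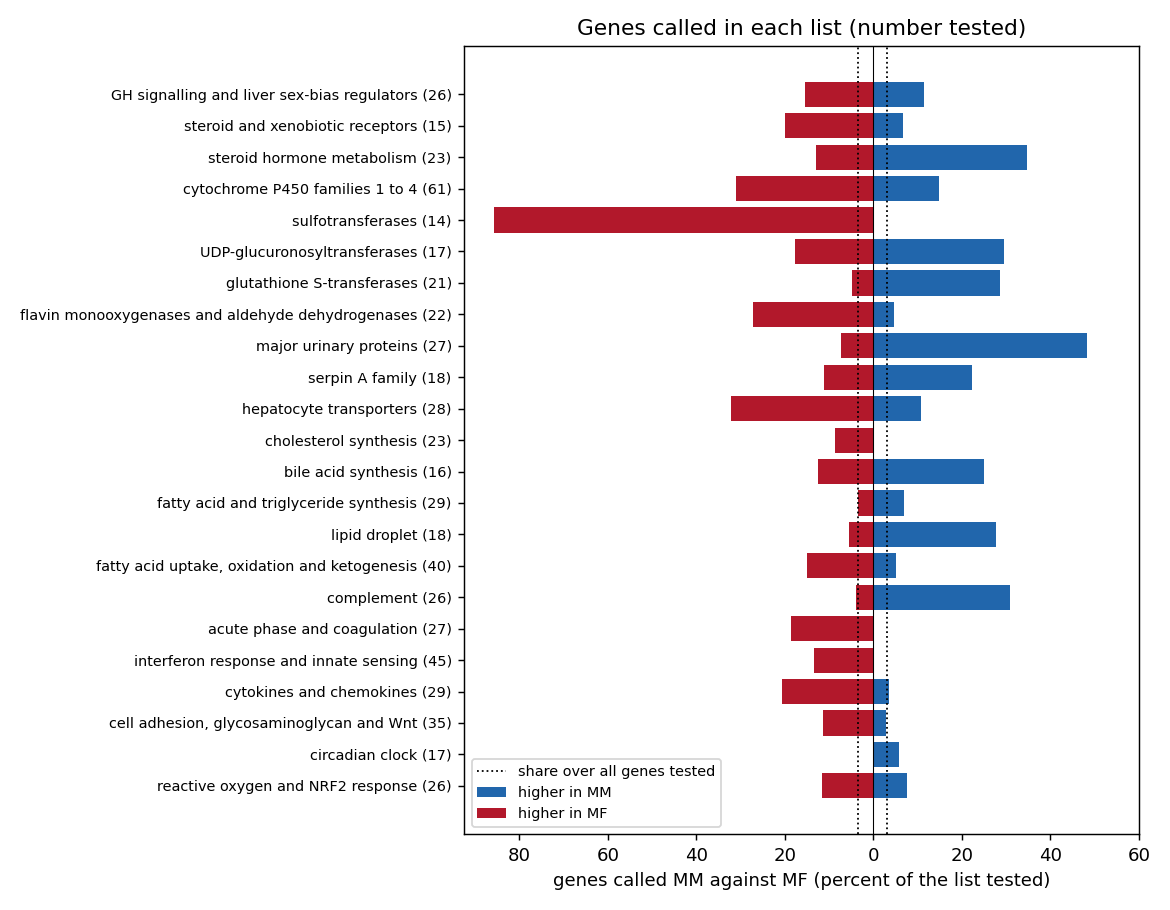
Share of each gene list called MM against MF at 8 weeks, in percent of the members tested (number in brackets), with genes higher in MM to the right and higher in MF to the left; the dotted lines mark the shares over all genes tested, 3% and 3.47%. Sulfotransferases extend furthest to the left and major urinary proteins furthest to the right.

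Called genes lay on every numbered chromosome, from 3.69% of tested genes on chromosome 11 to 9.51% on chromosome 19, and none of the 23 mitochondrial genes was called. With called genes of 1 direction joined when their starts lay within 500000 bases, 23 runs held 4 genes or more. Of the tested genes within a run, between 13.8 and 100% were called, with a median of 57.1%, and no such runs were counted for other genes. The run with the most genes, towards females, held 10 around the Sult2a family (chr7:13277283-14494230, mm10). A run of 8 zinc finger and predicted genes lay at chr17:21383748-22716937, all higher in MF and none by more than 1.58 on the log2 scale. Runs towards males held 7 genes from Mup6 to Mup12 (chr4:59964294-60741326), and 6 carboxylesterases from Ces2a to Ces4a (chr8:104734003-105150109).

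To see whether the sex differences of offspring of obese dams resembled those of controls, CM and CF were compared in the same fit, with no library in common. CM and CF differed in 1402 genes off X and Y (10.2% of genes tested), 552 higher in CM and 850 higher in CF. The count was 914 without CM 2 (46.8% of them higher in CM) and 1986 with the 8 CM and CF libraries only (47.4% higher in CM). Of the 891 genes called between MM and MF, 883 had the same direction between CM and CF, and 650 were called in both contrasts, all in the same direction. This is 73% of the MM and MF calls and 46.4% of the CM and CF calls. Over all genes tested off X and Y, the log2 fold changes of both contrasts had a rank correlation of 0.77. The share of all genes with the same direction was not counted. Both contrasts also shared 1 estimate of the spread of each gene, so their calls are not independent. The study named 79 genes for CM and CF at 8 weeks, of which 78 were tested here. 77 of them had the same direction in MM and MF, and 37 were called, 20 higher in MM and 17 higher in MF. They were chosen on the control mice of this study. Over the 850 genes higher in CF, the median log2 fold change was -0.96 in controls and -0.61 between MM and MF, and over the 552 higher in CM it was 0.87 and 0.67. These genes were selected for their size in controls, which by itself makes the control values larger.

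**Figure D4:**
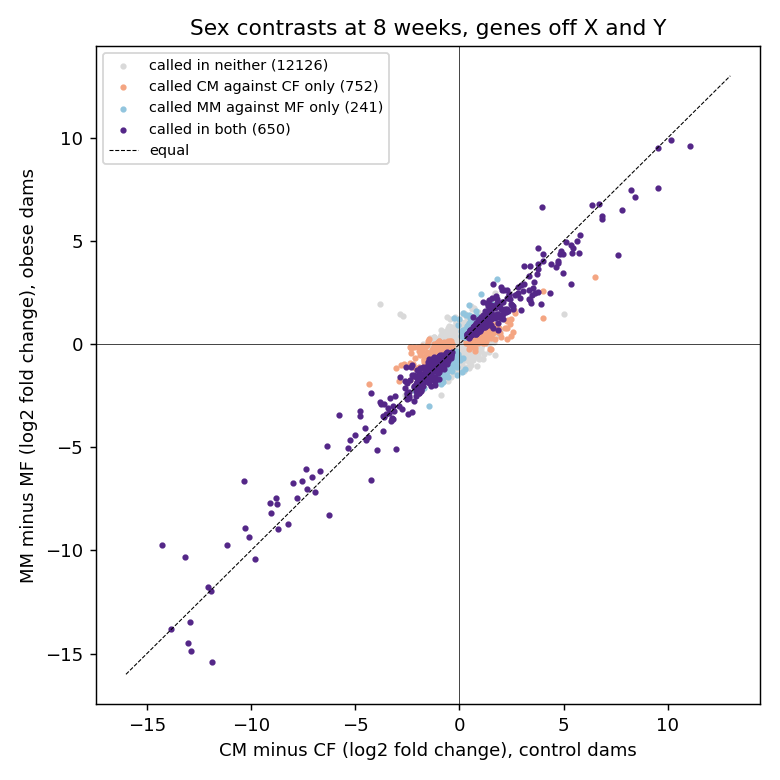
Each point is a gene off X and Y; the x axis is CM minus CF and the y axis is MM minus MF, both log2 fold changes at 8 weeks, and the dashed line marks equal values. The 650 genes called in both contrasts all lie below 0 on both axes or above 0 on both.

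Whether the sex difference itself differed between the diets of the dams was tested as the difference of both contrasts. No gene off X and Y passed (0% called by edgeR quasi-likelihood), and the smallest FDR was 0.108. Of the 13769 genes tested, 373 had an unadjusted p below 0.05, fewer than the 1 in 20 that chance gives. The likelihood ratio test of edgeR called 4 genes and DESeq2 called 3. Leaving out MF 2 gave 1 call and leaving out CM 1 gave 2. Lpin1, a phosphatidate phosphatase of triglyceride synthesis, had the smallest p. It had a mean of 195 ± 24.6 CPM in MM and of 165 ± 35.2 CPM in MF, against 646 ± 211 CPM in CM and 134 ± 30.4 CPM in CF (SD, n = 4). The difference of contrasts was -2.03 on the log2 scale. For Mbd1, a methyl-CpG binding protein, MM were at 57.4 ± 6.27 CPM and MF at 35.5 ± 2.84 CPM, against 140 ± 34.9 CPM in CM and 38.2 ± 3.58 CPM in CF (difference -1.18, FDR 0.312). Irf1, an interferon regulatory factor, had a mean of 33.9 ± 2.8 CPM in MM and of 41 ± 4.2 CPM in MF, against 25.5 ± 3.83 CPM in CM and 54.6 ± 7.65 CPM in CF. Zbtb16, 2310040G24Rik and Angptl4 completed the 6 genes of smallest p, with differences of -1.63, 1.23 and -1.69. A p that misses the threshold does not show that the contrasts are equal.

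Each library was placed on a scale from the CF mean (0%) to the CM mean (100%) by its log2 CPM over the 1402 genes called between CM and CF. The MM libraries stood at 79.1, 96.6, 86.4 and 94.2%, and the MF libraries at -1.01, 3.01, 13.1 and -3.5%. MM 1 was the least male-like library on this scale, and MF 3 the least female-like. The CM and CF libraries set the scale, so no test was made. The genes were also selected for their difference between these libraries, which by itself draws other libraries towards the middle of the scale.

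**Figure D5:**
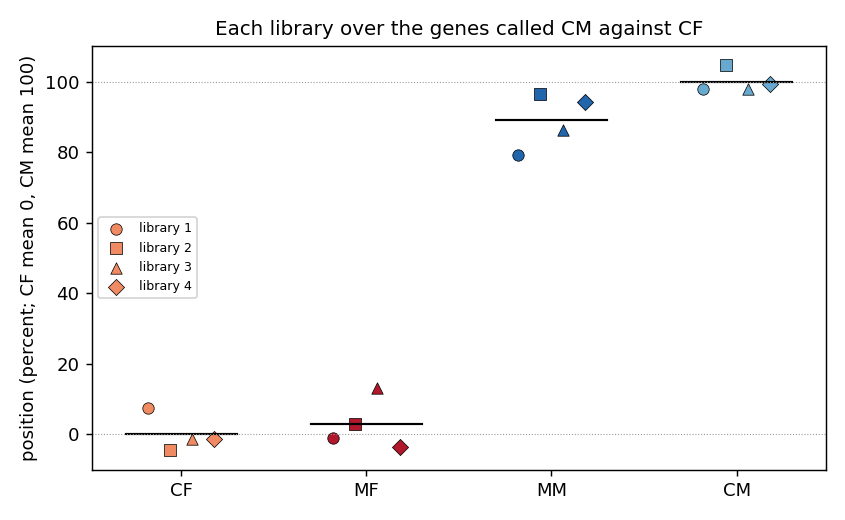
Position of each 8-week library in percent between the CF mean (0) and the CM mean (100), over 1402 genes called between CM and CF; the horizontal bars are group means and the symbol shape gives the library number. MM libraries lie between 79.1 and 96.6%, and MF libraries between -3.5 and 13.1%.

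To relate these differences to age, the same contrast was read in the 3-week table, which was made with another library kit and was fitted separately. The 3-week mice were other animals, taken before weaning and without the chow period, so age, diet and kit cannot be told apart. At 3 weeks MM and MF differed in 2 genes off X and Y (0.0137% of those tested), Flrt2 and Serpina6, both higher in MF. Neither was called in the fit of the 8 compared libraries only, and no gene was called without MM 4, MM 5, MF 4 or MF 5 of the 3-week libraries. The likelihood ratio test called 23 genes and DESeq2 called 46. Serpina6, which encodes corticosteroid-binding globulin, had a mean of 375 ± 40.5 CPM in MM and of 589 ± 43.6 CPM in MF at 3 weeks, and of 304 ± 60.2 CPM in MM and 632 ± 264 CPM in MF at 8 weeks (SD, n = 4). Of the 865 genes called at 8 weeks and tested at 3 weeks, 663 had the same direction at 3 weeks and 166 had the same direction with an unadjusted p below 0.05. The share of all genes with the same direction at both ages was not counted. Over all genes tested at 3 weeks, 7.81% had an unadjusted p below 0.05 in either direction, against 172 of these 865. Their median absolute log2 fold change was 0.24 at 3 weeks and 0.95 at 8 weeks. They were chosen for their size at 8 weeks, and whether the contrast differed between ages was not tested. Mup20 had a mean of 47.2 ± 33.8 CPM in MM and of 16.2 ± 9.52 CPM in MF at 3 weeks. Sult2a2, without a read in MM at 8 weeks, had a mean of 188 ± 137 CPM in MM and of 416 ± 75.2 CPM in MF at 3 weeks. Levels of the 2 ages come from separately scaled tables and were not tested against each other.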

How the data were processed

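Liver RNA of 4 mice per group was sequenced at 8 weeks, and a separate 3-week table was read for comparison. The authors aligned reads to mm10 with STAR and counted them per gene with featureCounts, leaving out reads that mapped to several places, and the deposited values used here are these raw counts (tool versions for the RNA-seq step are not given in the sources used here). The deposited tables also hold 32 columns of log2 CPM and 40 columns of the authors' own comparisons (fold changes and p-values), which were not used.

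A gene was tested if 4 or more of the 16 libraries of an age each held 15 reads or more of it. Counts were scaled by TMM and fitted with the quasi-likelihood test of edgeR 4.0.16 in R 4.3.3, with 1 mean per group over the 16 libraries (12 residual degrees of freedom). Benjamini-Hochberg FDR was taken over all genes tested, X and Y included, and a gene was called at FDR < 0.05. Levels are CPM on the scaled library sizes. Where a group had no read, the fold is a bound against 3 reads over that group; where it had 1 to 3 reads, the ratio carries a 95% Poisson interval, which covers counting error only. Scripts were tested on simulated data. Genes were named by size of difference (12 in each direction, without overlap and without predicted genes), by level (6 in each direction), by smallest FDR within lists, and, for the difference of contrasts, by smallest p. Other genes named, such as Flrt2, Mup-ps10, Mup-ps16, Aldh7a1 and Crp, complete a count and were chosen after their values were seen. A few genes that meet these rules are not reported here. The members and lists were chosen with earlier results of these data known. Alternatives were the likelihood ratio test, DESeq2 1.42.0, RLE and total count scaling, other filters and thresholds, the 8 compared libraries only, the replicate number as a block, and each library left out.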

Additional observations from a re-analysis of the deposited data

Results flagged for a closer look

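In 340 groups of 4 libraries, 29 had a highest or lowest library far from the other 3 by Dixon's criterion, where chance gives about 1 in 20, or 17. In 7 of the 29 the other 3 libraries had no read, so that 1 or 2 reads set the value, and 22 remain without them. MF 1 and MM 2 accounted for 6 each, MM 1 and MM 4 for 5 each, MF 3 for 4 and MM 3 for 3.

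Among MM libraries, MM 1 stood apart for Cyp2a4 at 49.1 CPM, Cyp17a1 at 7.80 CPM, Cyp3a16 at 0.222 CPM, and Cyp2b13 and Sult2a5 at 0.0246 CPM each. MM 2 stood apart for Serpina1c at 5520 CPM and Idi1 at 42.4 CPM, and for the summed levels of glutathione S-transferases at 9949 CPM, fatty acid oxidation genes at 26585 CPM, acute phase genes at 36074 CPM and exocrine pancreas markers at 27.3 CPM. MM 3 stood apart for Lum at 6.55 CPM, Igfbp1 at 38.4 CPM and Sult2a1 at 0.0305 CPM. MM 4 stood apart for Cyp4a12b at 92.2 CPM, Cyp3a41b at 0.0734 CPM, Cyp3a41a and Hsd3b1 at 0.0367 CPM each, and summed T and NK cell markers at 6.86 CPM.

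Among MF libraries, MF 1 stood apart for Mup20 at 16.8 CPM, Sdr16c5 at 0.0234 CPM, Srd5a1 at 36.8 CPM, Gstp1 at 271 CPM, Gsta1 at 0.515 CPM and summed glucuronosyltransferases at 3133 CPM. MF 3 stood apart for Tox at 11.9 CPM, Cyp39a1 at 29.5 CPM, 2310040G24Rik at 1.35 CPM (1.346) and summed stellate cell markers at 739 CPM.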

How the results depend on the processing

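The 891 genes called between MM and MF became 428 at FDR 0.01, 433 with at least 2-fold, 1363 with DESeq2, 497 with the 8 compared libraries only, and 564 to 1392 when 1 library was left out (without MF 4 and without MF 1). The replicate number as a block gave 515 calls, 482 of them among the 891. Deviations of same-numbered MM and MF libraries correlated at 0.257, 0.0282, 0.229 and 0.395, and MM 1, MM 3 and MM 4 correlated best with their own number but MM 2 with MF 1. This is a hint of pairing from the data and not from the design, since no label ties the numbers and 1 of 4 pairs was below 0.1. The likelihood ratio test, both other scalings and both other filters gave 849 to 1216 calls. The 1402 CM and CF calls became 1986 with the 8 CM and CF libraries only and 1847 with DESeq2. They became 1746 with the likelihood ratio test, 1536 with the replicate block and 914 to 1228 when 1 library was left out. The share higher in CM was 39.4% in the main fit and 31.5% of 1403 with total count scaling. It was 47.4% with the 8 CM and CF libraries only, 47.3% with the replicate block and 36.7 to 46.8% when 1 library was left out. For the difference of contrasts, 0 calls became 4 with the likelihood ratio test, 3 with DESeq2 and 0 to 2 when 1 library was left out. At 3 weeks, 2 calls became 23 with the likelihood ratio test, 46 with DESeq2, 1 with total count scaling, 1 with the 8 compared libraries only (a gene higher in MM and neither of the 2), 2 other genes with the replicate block on shared numbers, and 0 to 6 when 1 library was left out. Of 131 named genes, 24 lost the call under 1 or more alternatives: Ahr, Bhlhe41, C3, Ces1c, Dcn, Foxa1, Foxa3, Gbp7, Glul, Gpc1, Idi1, Il15, Itga6, Itih4, Lpl, Mat1a, Nox4, Onecut1, Plin5, Pnpla3, Pparg, Ptgds, Serpina1c and Serpina6. A change of sign occurred in 4 uncalled genes. Igfbp2 was at 0.0082 on the log2 scale under the block and from -0.161 to 0.117 when 1 library was left out, Ghr from -0.096 to 0.053, Jak2 from -0.211 to 0.0063 and Foxa2 from -0.0034 to 0.219. The cause of these shifts was not tested. Counts per list without MM 1, MM 2 or MF 1 were added after seeing the data. Depth limits genes with few reads in 1 sex, whose fold is a bound or an interval.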
